A study of Mus musculus with 6 samples.

Results

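Polycomb repressive complex 2 (PRC2) is represented here by the mRNAs of 10 subunit genes, Ezh2, Ezh1, Eed, Suz12, Rbbp4, Rbbp7, Mtf2, Phf1, Jarid2 and Aebp2. Every non-control probe that the array names after one of them was taken, which gave 20 of 41174 probes. A probe was tested if some group had it well above background on each of its arrays, which held for 19 of the 20 and for 21049 of all probes. RNA was measured on 6 one-colour arrays, 2 for each of 3 groups: total input RNA, an immunoprecipitation (IP) with anti-PABP1, which targets a poly(A)-binding protein, and an IP with anti-GFP. All groups came from one kind of culture, germ cells differentiated in vitro for 12 days from mouse embryonic stem cells of the V6.5 line (mixed C57BL/6 and 129SV background) that express the fusion protein Dazl-GFP-V5. Proteins were crosslinked to RNA with ultraviolet light before the IP, and the design names input and the PABP1 IP as the controls. The tagged DAZL is present in every group, an IP from untagged cells was not analysed here, and whether replicates were separate cultures is not given in the labels, so the errors measure only the spread between these arrays.

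PRC2 is a chromatin repressor that methylates the tail of histone H3 at silent developmental genes. EZH2 or EZH1 is the methyltransferase, EED reads the finished mark and activates the enzyme, SUZ12 is the scaffold, and RBBP4 or RBBP7 binds histones. MTF2 and PHF1 belong to one form of the complex and JARID2 and AEBP2 to another. In germ cell precursors the complex is known for holding somatic genes silent. DAZL is a germ cell protein that binds mRNAs, mostly in their 3′ untranslated regions, and acts on their translation, whereas PABP1 binds poly(A) tails of mRNAs in general. No probe or transcript sequence of the members was analysed here.

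Between 41.5% and 52.6% of the 43379 non-control spots of an array were well above background, and 0 were saturated. Processed signals were divided by the 75th percentile of their array, which ran from 61.3 on input replicate 1 to 156 on GFP IP replicate 2, and the quotient is called relative signal below. The inputs were on slide 1 together with replicate 1 of the PABP1 IP and replicate 2 of the GFP IP, and slide 2 held the other 2 arrays. Dazl, which encodes the tagged protein, had relative signals of 0.883 and 0.807 in input, 0.237 and 0.242 in the PABP1 IP and 9.20 and 15.0 in the GFP IP. Of 10 germ cell markers 8 were measured, while Ddx4 was too dim to be tested and Prdm14 was not analysed here. The relative signals of those 8 summed to 56.6 to 63.5 in input, 139 to 141 in the PABP1 IP and 109 to 122 in the GFP IP. Of them 5 were higher and 2 lower in the GFP IP against input (limma, adjusted p under 0.05). Over all 14926 genes, read by 1 probe each, 18.0% were higher and 36.0% lower in that comparison. The relative signals of 6 of 6 pluripotent cell markers summed to 171 on each input array, 301 to 325 in the PABP1 IP and 265 to 356 in the GFP IP. Of those 6, 4 were higher and 0 lower in the GFP IP against input. Markers of other cells were also present. The relative signals of 6 of 6 fibroblast and feeder cell markers summed to 94.5 to 128 in input, 108 to 125 in the PABP1 IP and 32.4 to 56.9 in the GFP IP. Those of 5 of 6 cardiac and smooth muscle markers (Myh6 was not well above background) summed to 20.4 to 25.8, 21.8 to 22.3 and 5.72 to 9.38. On each of these 2 lists 0 genes were higher and 4 were lower in the GFP IP against input. The relative signals of 3 of 5 neural markers (Pax6 and Map2 were not well above background) summed to 3.95 to 5.15, 2.62 to 4.19 and 12.1 to 15.1. The neural markers did not rise as a set in the GFP IP against input. Tubb3 was higher (log2 difference 1.79), while Sox1 (-0.95) and Neurog1 (-1.48) lay below input without a call. Of 5 visceral endoderm markers, Afp, Ttr, Apoa1 and Apob were not well above background. The other, Amn, was higher in the PABP1 IP than in input (0.97 ± 0.23, limma adjusted p = 0.0159). It had no call in the GFP IP against input (0.33 ± 0.23, adjusted p = 0.253). The part of these cells in the results on PRC2 was not tested. In such bulk samples fewer cells of a type, less RNA per cell and less of that RNA recovered by an IP cannot be told apart.

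By their calls, the PRC2 mRNAs divided into those with probes called higher in the GFP IP and those without such a call. With 2 arrays per group, a missing call does not show that a difference was absent. Suz12, Rbbp4, Mtf2, Jarid2 and Aebp2 each had probes that exceeded input in the GFP IP and also exceeded the PABP1 IP. Ezh2, Ezh1, Eed, Rbbp7 and Phf1 had no probe called higher in either comparison. Eed was the 1 member called higher in the PABP1 IP against input. Its GFP IP arrays also lay above those of input without overlap, at a log2 difference of 0.67 (limma adjusted p = 0.0708). In the GFP IP against input 13 of 19 member probes were higher, 1 was lower and 5 did not pass (limma, Benjamini-Hochberg adjusted p under 0.05 over all tested probes), where 20.9% of all tested probes were higher and 32.0% lower (52.9% in either direction). The members' median log2 difference was 1.39 and that of all tested probes -0.36. In the GFP IP against the PABP1 IP 13 were higher, 1 lower and 5 not past, where 25.0% of all tested probes were higher and 37.6% lower (62.5% in either direction), with medians of 2.62 and -0.43. In the PABP1 IP against input 1 was higher, 10 were lower and 8 did not pass, where 30.5% of all were higher and 24.2% lower (54.7% in either direction), with medians of -0.76 and 0.12. The arrays of the groups did not overlap for 16, 18 and 16 member probes in the same order, and for 81.7%, 81.0% and 78.5% of all tested probes. Of the 19 probes, 1 (Aebp2 A_52_P59422) was tested only because it was above background in the GFP IP. The other 18 were well above background on all arrays, and 12 of them were higher in the GFP IP against input and 12 between the IPs, with medians of 1.37 and 2.44. Each pair of these comparisons shares a group.

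**Figure D1:**
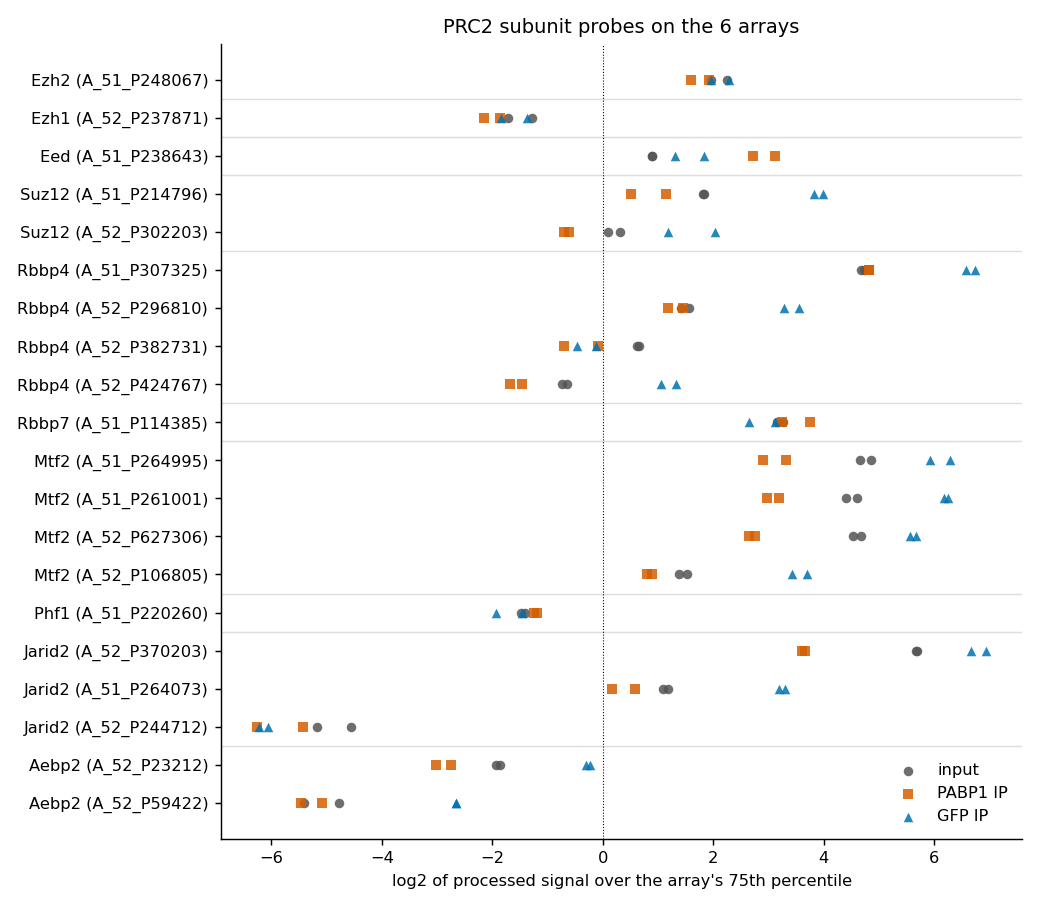
The horizontal axis is the log2 of the processed signal over the 75th percentile of its array (dotted line at 0), and each row is a probe of a PRC2 subunit, with circles for input, squares for the PABP1 IP and triangles for the GFP IP (2 arrays each). The GFP IP arrays lie to the right of the other 4 in every row of Suz12, Mtf2 and Aebp2, in 3 of 4 rows of Rbbp4 and in 2 of 3 rows of Jarid2, while in the row of Eed the PABP1 IP arrays lie furthest right.

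The direction of a difference from input depends on the scaling, since the 75th percentile makes each array's upper signals equal. The 8 spike-in controls moved the median of all probes by 1.01 in the GFP IP against input, by 2.28 in the PABP1 IP against input and by -1.27 between the IPs. With them the members had 14 higher and 0 lower calls in the GFP IP against input, 15 higher and 0 lower in the PABP1 IP against input, and 10 higher and 4 lower between the IPs. The PABP1 IP values of all 19 tested member probes are positive under spike-in scaling, those below input included. Over all probes the calls in the GFP IP against input were 4400 higher and 6731 lower, 5825 and 2231 when arrays were centred on their median (shift 0.58), 5731 and 4403 after cyclic loess (0.37) and 6586 and 505 with spike-ins. With normexp background they were 3986 and 9529, and with no filter on dim probes 3883 and 17740. Between the IPs they were 5255 and 7910, 6032 and 5215 when centred on the median (0.39), 7015 and 5311 after cyclic loess (0.50) and 1180 and 13329 with spike-ins. For the PABP1 IP against input they were 6413 and 5095, and 17600 and 422 with spike-ins. What a constant scaling cannot move is the distance of the members from all probes, whose medians differed by 1.76 in the GFP IP against input, -0.88 in the PABP1 IP against input and 3.04 between the IPs. These medians weigh genes by their number of probes, and with 1 probe a gene the distances were 1.41, -0.55 and 1.70. The PABP1 IP distance was -0.31 with normexp background and -0.25 with no filter.

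**Figure D2:**
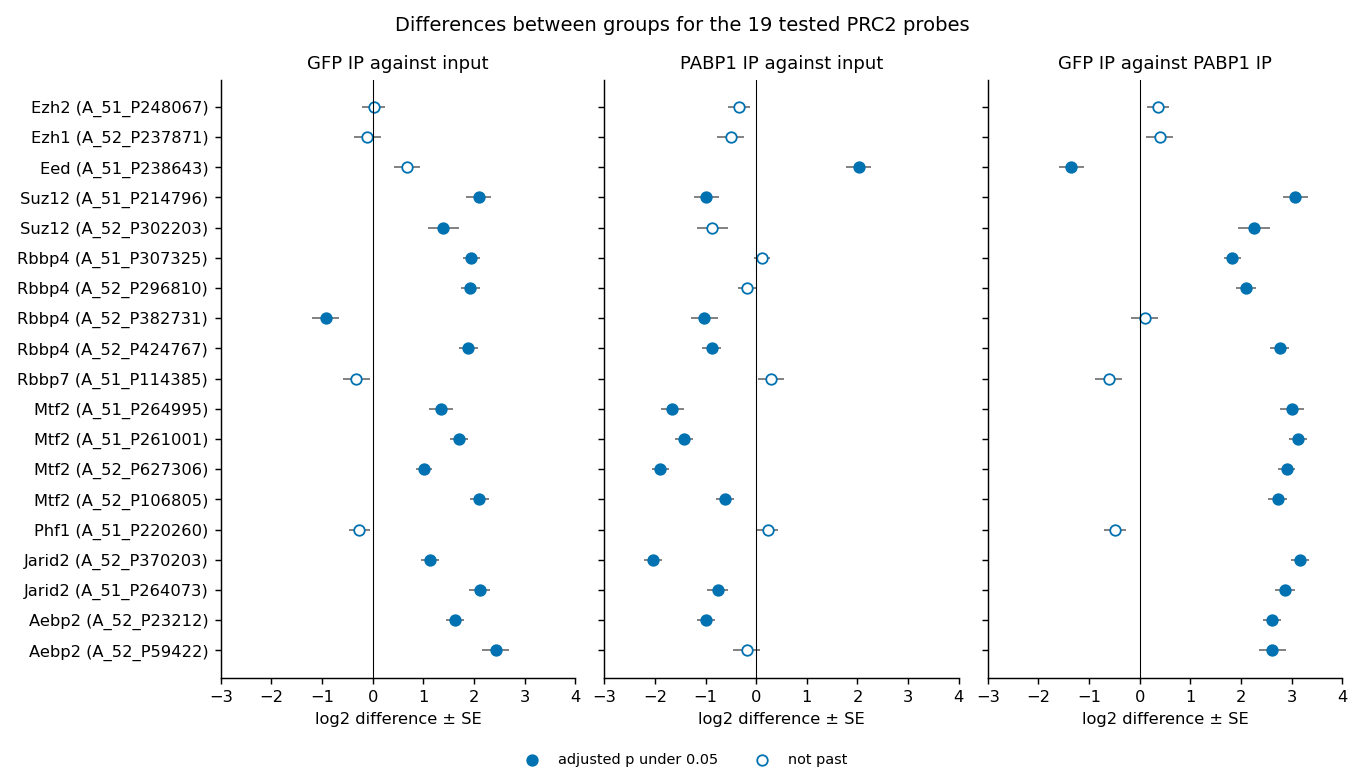
Each panel is a comparison, the horizontal axis is the log2 difference between group means with its standard error from limma (n = 2 arrays per group), and filled points have an adjusted p under 0.05. Suz12, Mtf2, Jarid2, Aebp2 and 3 of 4 Rbbp4 probes are filled and right of 0 in the first and last panels, and Eed is filled and right of 0 in the second. The Aebp2 probe A_52_P59422 is drawn at its measured differences. Its input and PABP1 IP signals were not well above background, so these groups give only a bound.

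The catalytic subunits were compared first. The Ezh2 probe had processed signals of 290 and 282 in input, 308 and 538 in the PABP1 IP and 727 and 606 in the GFP IP. As relative signals these were 4.73 and 3.88, 3.02 and 3.79, and 4.85 and 3.88. The GFP IP and input arrays overlapped, and the PABP1 IP arrays lay slightly below both. The log2 difference was 0.02 ± 0.22 in the GFP IP against input (adjusted p = 0.953), -0.34 ± 0.22 in the PABP1 IP against input (adjusted p = 0.247) and 0.36 ± 0.22 between the IPs (adjusted p = 0.207). After cyclic loess Ezh2 was higher in the GFP IP than in the PABP1 IP (0.83, adjusted p = 0.0232).

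Ezh1, the paralog of Ezh2, had processed signals of 25.3 and 22.0 in input, 23.0 and 39.0 in the PABP1 IP and 58.2 and 43.3 in the GFP IP, or relative signals of 0.413 and 0.303, 0.225 and 0.275, and 0.388 and 0.278. Its GFP IP and input arrays also overlapped. The log2 differences in the same order were -0.11 ± 0.27 (adjusted p = 0.748), -0.51 ± 0.27 (adjusted p = 0.162) and 0.40 ± 0.27 (adjusted p = 0.234). With the slide as a block the PABP1 IP was below input (-0.70, adjusted p = 0.0467), and with normexp background the GFP IP was below input (-0.45, adjusted p = 0.0444). Each enzyme is read by 1 probe.

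Eed, the reader of the mark, had processed signals of 114 and 135 in input, 674 and 1230 in the PABP1 IP and 535 and 385 in the GFP IP. The relative signals were 1.86 and 1.86 in input, 6.61 and 8.66 in the PABP1 IP and 3.57 and 2.47 in the GFP IP, so the 3 groups did not overlap and the PABP1 IP was the highest. It was 4.07-fold higher in the PABP1 IP than in input (2.02 ± 0.25, adjusted p = 0.00221), and 6.37% of all tested probes had a larger difference. In the GFP IP it was 2.55-fold lower than in the PABP1 IP (-1.35 ± 0.25, adjusted p = 0.00648, and -0.96 with adjusted p = 0.0810 if centred on the overall median). Against input the GFP IP was at 0.67 ± 0.25 (adjusted p = 0.0708). That value passed when replicate 2 of the GFP IP was left out (0.94, adjusted p = 0.0439), with normexp background (0.77, 0.0132), median centring (1.25, 0.0481), cyclic loess (0.96, 0.0286), spike-ins (1.68, 0.00790) and among probes well above background on all arrays (0.67, 0.0444).

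Suz12, the scaffold, was read by 2 probes. The brighter one (A_51_P214796) had processed signals of 217 and 254 in input, 146 and 314 in the PABP1 IP and 2390 and 2200 in the GFP IP. The relative signals were 3.54 and 3.50, 1.43 and 2.21, and 15.9 and 14.1, with no overlap between groups and the GFP IP far above the rest. It was 4.26-fold higher in the GFP IP than input (2.09 ± 0.25, adjusted p = 0.00283) and 8.43-fold higher than in the PABP1 IP (3.07 ± 0.25, adjusted p = 0.000613), where 1.94% of all tested probes had a larger difference. The gap to the PABP1 IP was 3.30 within slide 1 and 2.85 within slide 2.

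The dimmer Suz12 probe (A_52_P302203) had processed signals of 65.2 and 90.5 in input, 62.6 and 92.4 in the PABP1 IP and 338 and 634 in the GFP IP, or relative signals of 1.06 and 1.25, 0.614 and 0.651, and 2.25 and 4.06. The 2 GFP IP arrays lay apart from each other but above all others. Its log2 difference was 1.39 ± 0.31 against input (adjusted p = 0.0155) and 2.26 ± 0.31 against the PABP1 IP (adjusted p = 0.00226, and 0.99 with adjusted p = 0.0929 under spike-in scaling). The call against input was lost without input replicate 1 (1.28, adjusted p = 0.0850) and without input replicate 2 (1.51, adjusted p = 0.0563). The brighter probe was also below input in the PABP1 IP (-0.98 ± 0.25, adjusted p = 0.0217) and the dimmer one was at -0.87 ± 0.31 (adjusted p = 0.0621). The call of the brighter probe was lost without input replicate 1 (-0.98, adjusted p = 0.0945), input replicate 2 (-0.99, 0.0927) or PABP1 IP replicate 1 (-0.67, 0.0564), with normexp background (-0.51, 0.0675), median centring (-0.79, 0.129) or no filter (0.0717). The dimmer probe passed within slide 1 (-0.91, adjusted p = 0.0297), among probes well above background on all arrays (0.0387), and in a fit of the 2 groups alone (0.0188).

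Rbbp4, a histone-binding subunit that PRC2 shares with other complexes, was read by 4 probes, of which 3 are annotated to its RefSeq mRNA. The brightest (A_51_P307325) had processed signals of 1620 and 1850 in input, 2880 and 3990 in the PABP1 IP and 15900 and 14800 in the GFP IP, or relative signals of 26.4 and 25.5, 28.2 and 28.1, and 106 and 94.9. Input and the PABP1 IP were nearly level and the GFP IP stood above both. It was 3.86-fold higher in the GFP IP than input (1.95 ± 0.16, adjusted p = 0.00161) and 3.56-fold higher than in the PABP1 IP (1.83 ± 0.16, adjusted p = 0.000676, and 0.56 with adjusted p = 0.353 under spike-in scaling), with 0.12 ± 0.16 for the PABP1 IP against input (adjusted p = 0.567, but 0.54 and 0.0291 with normexp background and a higher call of 2.40 with spike-ins). The second (A_52_P296810) had processed signals of 164 and 213, 279 and 321, and 1460 and 1830 in the same order. The dimmest of them (A_52_P424767) had 39.2 and 43.7, 31.7 and 51.8, and 377 and 325.

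These 2 probes were also higher in the GFP IP than input, by 1.93 ± 0.20 (adjusted p = 0.0022) and 1.88 ± 0.19 (adjusted p = 0.00214). They differed in the PABP1 IP against input, where A_52_P296810 was at -0.17 ± 0.20 (adjusted p = 0.497) and A_52_P424767 at -0.88 ± 0.19 (adjusted p = 0.0121). The latter call was lost without input replicate 1 (-0.84, adjusted p = 0.0762), input replicate 2 (-0.93, 0.0616) or PABP1 IP replicate 1 (-0.77, 0.0509), with median centring (-0.69, 0.124) and with no filter (0.0616). Between the IPs they were 4.30-fold (2.10 ± 0.20, adjusted p = 0.000771) and 6.80-fold (2.76 ± 0.19, adjusted p = 0.000537) higher in the GFP IP, the former with 0.83 (adjusted p = 0.161) under spike-in scaling.

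The fourth Rbbp4 probe (A_52_P382731) is annotated to a cDNA clone of unclassified product and behaved unlike the others. Its processed signals were 96.3 and 111 in input, 96.0 and 87.7 in the PABP1 IP and 108 and 144 in the GFP IP, or relative signals of 1.57 and 1.53, 0.941 and 0.618, and 0.720 and 0.923. Both IPs lay below input and overlapped each other. The log2 differences were -0.93 ± 0.26 in the GFP IP (adjusted p = 0.0328), -1.02 ± 0.26 in the PABP1 IP (adjusted p = 0.0226) and 0.10 ± 0.26 between the IPs (adjusted p = 0.761). The GFP IP call was lost without input replicate 1 (-0.91, adjusted p = 0.132), input replicate 2 (-0.95, 0.114) or GFP IP replicate 1 (-0.75, 0.135), with median centring (-0.35, 0.260), after cyclic loess (-0.71, 0.0509), with no filter (0.0506) and with the replicate block (0.0676). The PABP1 IP call was lost without input replicate 1 (adjusted p = 0.0984), input replicate 2 (-1.04, 0.0919) or PABP1 IP replicate 2 (-0.72, 0.0731), with no filter (0.0709) and with the replicate block (0.0517).

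Rbbp7, the paralog of Rbbp4, was read by 1 probe with processed signals of 545 and 695 in input, 961 and 1920 in the PABP1 IP and 1300 and 980 in the GFP IP. The relative signals were 8.89 and 9.57, 9.42 and 13.5, and 8.67 and 6.28, so the GFP IP was the lowest group and the PABP1 IP overlapped input. The log2 differences were -0.32 ± 0.26 in the GFP IP against input (adjusted p = 0.335), 0.29 ± 0.26 in the PABP1 IP against input (adjusted p = 0.395) and -0.61 ± 0.26 between the IPs (adjusted p = 0.0917). With the slide as a block Rbbp7 was lower in the GFP IP than in input (-0.57, adjusted p = 0.0284) and than in the PABP1 IP (-0.61, adjusted p = 0.0118), and the gap between the IPs was -0.58 within slide 1 and -0.64 within slide 2. Spike-in scaling gave -1.89 between the IPs (adjusted p = 0.00107) and 2.57 for the PABP1 IP against input (adjusted p = 4.7e-06), where normexp background gave 0.67 (adjusted p = 0.0473). The GFP IP value against input changed sign without passing under 4 alternatives, at 0.18 with normexp background, 0.25 with median centring, 0.06 after cyclic loess and 0.68 with spike-ins.

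Mtf2, an accessory subunit that guides PRC2 to unmethylated CpG islands, was read by 4 probes that were all higher in the GFP IP. The probe A_51_P264995 had processed signals of 1780 and 1830 in input, 1010 and 1060 in the PABP1 IP and 9100 and 12200 in the GFP IP, or relative signals of 29.0 and 25.2, 9.90 and 7.46, and 60.7 and 78.2. A_51_P261001 had processed signals of 1300 and 1760, 797 and 1290, and 10800 and 11800 in the same order. A_52_P627306 had 1560 and 1670, 690 and 889, and 7040 and 7900. The dimmest, A_52_P106805, had 176 and 190, 189 and 246, and 1610 and 2030, which are relative signals of 2.87 and 2.62, 1.85 and 1.73, and 10.7 and 13.0. On each Mtf2 probe the relative signals ran from the PABP1 IP through input to the GFP IP with no overlap between groups.

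The Mtf2 probes were 2.01-fold to 4.31-fold higher in the GFP IP than input, with log2 differences of 1.01 ± 0.16 for A_52_P627306 (adjusted p = 0.00601) and 2.11 ± 0.18 for A_52_P106805 (adjusted p = 0.00168) at the ends. Against the PABP1 IP they were 6.60-fold to 8.76-fold higher, from 2.72 ± 0.18 to 3.13 ± 0.18, with adjusted p from 0.000536 to 0.000589. Their log2 differences for the PABP1 IP against input ran from -1.89 ± 0.16 (A_52_P627306, adjusted p = 0.00108) to -0.61 ± 0.18 (A_52_P106805, adjusted p = 0.0345). The last value did not pass within slide 1 (-0.56, adjusted p = 0.0712), with the replicate block (0.0664), or without input replicate 1 (-0.55, 0.171), input replicate 2 (-0.68, 0.112), PABP1 IP replicate 1 (-0.66, 0.0770) or PABP1 IP replicate 2 (-0.56, 0.112). Nor did it pass with normexp background (-0.25, adjusted p = 0.227), median centring (-0.42, 0.164) or no filter (0.105).

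Phf1, the homolog of Mtf2 in the same form of the complex, was read by 1 dim probe with processed signals of 22.1 and 27.3 in input, 42.9 and 62.4 in the PABP1 IP and 54.3 and 40.6 in the GFP IP. The relative signals were 0.361 and 0.376, 0.421 and 0.439, and 0.362 and 0.260, a narrow span in which the GFP IP and input overlapped. The log2 differences were -0.26 ± 0.21 in the GFP IP against input (adjusted p = 0.328), 0.22 ± 0.21 in the PABP1 IP against input (adjusted p = 0.414) and -0.49 ± 0.21 between the IPs (adjusted p = 0.0946). A block for the slide took Phf1 past the threshold between the IPs (-0.49, adjusted p = 0.0441), as did leaving out replicate 1 of the GFP IP (-0.72, adjusted p = 0.0426), and the gap was -0.69 within slide 1 and -0.28 within slide 2. Spike-in scaling also gave calls, of -1.76 between the IPs (adjusted p = 0.00231) and 2.50 for the PABP1 IP against input (adjusted p = 8.2e-06).

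Jarid2, which recruits PRC2 and stimulates its activity, was read by 3 probes. The brightest (A_52_P370203) had processed signals of 3100 and 3730 in input, 1290 and 1730 in the PABP1 IP and 15200 and 19100 in the GFP IP, or relative signals of 50.6 and 51.4, 12.6 and 12.2, and 101 and 122. It was 2.19-fold higher in the GFP IP than input (1.13 ± 0.17, adjusted p = 0.00516) and 4.11-fold lower in the PABP1 IP than in input (-2.04 ± 0.17, adjusted p = 0.00105). Its 8.97-fold difference between the IPs (3.17 ± 0.17, adjusted p = 0.000536) was the largest of the 19 member probes with the 75th percentile, and 1.59% of all tested probes had a larger one.

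The second Jarid2 probe (A_51_P264073) had processed signals of 131 and 165, 115 and 212, and 1480 and 1430 in the same order, or relative signals of 2.14 and 2.27, 1.13 and 1.49, and 9.87 and 9.17. It was 4.32-fold higher in the GFP IP than input (2.11 ± 0.20, adjusted p = 0.00195), at -0.76 ± 0.20 in the PABP1 IP against input (adjusted p = 0.0238) and 7.33-fold higher in the GFP IP than in the PABP1 IP (2.87 ± 0.20, adjusted p = 0.000541). The PABP1 IP call was lost without input replicate 1 (-0.81, adjusted p = 0.0921), input replicate 2 (-0.72, 0.121) or PABP1 IP replicate 1 (-0.56, 0.0811), with normexp background (-0.35, 0.127), median centring (-0.57, 0.196) and no filter (0.0993). Another Jarid2 probe (A_52_P244712), annotated to a cDNA clone, was not well above background on any array, with processed signals from 1.86 to 2.60, and was not tested.

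Aebp2, the zinc finger partner of Jarid2 in the complex, was read by 2 probes for different transcript variants. The probe of variant 3 (A_52_P23212) had processed signals of 16.1 and 20.1 in input, 12.6 and 21.1 in the PABP1 IP and 128 and 126 in the GFP IP, or relative signals of 0.263 and 0.277, 0.124 and 0.149, and 0.853 and 0.808. The groups did not overlap, and the replicates within each lay close together. It was 3.08-fold higher in the GFP IP than input (1.62 ± 0.17, adjusted p = 0.00238, with 0.48 under normexp background) and 6.13-fold higher than in the PABP1 IP (2.62 ± 0.17, adjusted p = 0.000536, with 0.95 under normexp background). Variant 3 was below input in the PABP1 IP (-0.99 ± 0.17, adjusted p = 0.00647), a call lost without input replicate 2 (-0.95, adjusted p = 0.0502) and with median centring (-0.80, 0.0700), and the value was -0.47 with normexp background.

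The Aebp2 probe of variant 1 (A_52_P59422) was well above background on the GFP IP arrays alone, at processed signals of 23.9 and 24.6, against 2.23 and 1.72 in input and 2.32 and 4.17 in the PABP1 IP. Since the dimmer groups give only a bound, the fold is taken, array by array, against the probe's own signal or the dimmest signal that counts as well above background, whichever is larger. On that footing it was at least 1.31-fold higher than in input and at least 2.49-fold higher than in the PABP1 IP. The adjusted p-values of the fit, 0.00246 and 0.000958, belong to the measured differences from signals below background and not to these bounds, and the probe entered the fit through the GFP IP alone. Neither call held with normexp background, where the GFP IP was at -0.36 against input (adjusted p = 0.145) and 0.14 against the PABP1 IP (adjusted p = 0.589).

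**Figure D3:**
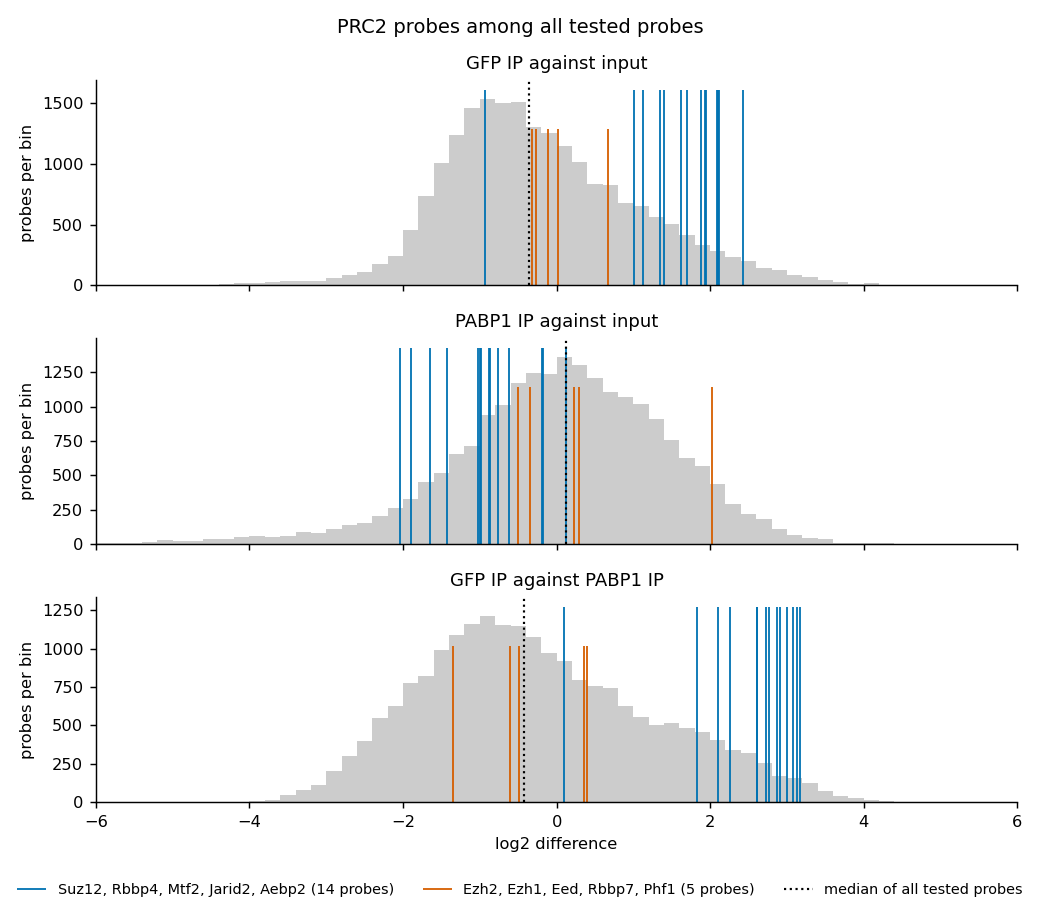
Grey bars count the 21049 tested probes by log2 difference (horizontal axis, with the few probes beyond its ends not drawn), lines mark the 19 member probes, and the dotted line is the median of all tested probes. Most lines of Suz12, Rbbp4, Mtf2, Jarid2 and Aebp2 stand in the right shoulder of the first and last panels, and those of Ezh2, Ezh1, Rbbp7 and Phf1 stand near the middle of all 3. The genes were coloured by their calls.

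Where a gene had several probes, these gave different sizes against input but closer ones between the IPs for Mtf2 and Jarid2. The Mtf2 probes spanned 1.10 in the GFP IP against input and 1.28 in the PABP1 IP against input, but 0.41 between the IPs. The Jarid2 probes spanned 0.98, 1.27 and 0.29. No span is given for Aebp2, since 1 of its probes is only bounded outside the GFP IP. The Suz12 probes, by contrast, spanned 0.70, 0.12 and 0.82. For Rbbp4 with all 4 probes the spans were 2.88, 1.14 and 2.67. The 5 genes with a probe higher in the GFP IP are the 5 with more than 1 probe, so the number of probes cannot be told apart from the gene in this division. With 1 probe a gene in the fit, the same 5 of 10 members were higher in the GFP IP than input. Over all 14926 genes 2745 were higher and 5465 lower. In that fit 5 members were higher and 1 lower in the GFP IP than in the PABP1 IP, where 3308 genes were higher and 6185 lower.

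Leaving out single arrays affected the comparisons unequally. Between the IPs the 14 member calls held without any single array. In the GFP IP against input the number of member calls ran from 12 to 15. For the PABP1 IP against input it fell from 11 to 6 without input replicate 1, to 5 without input replicate 2 and to 7 without PABP1 IP replicate 1. Over all probes the calls of the GFP IP against input fell from 11131 to 5656 without input replicate 1 and to 6435 without input replicate 2, and those of the PABP1 IP against input from 11508 to 7621 and 7477.

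The authors' deposited table of group means gave another picture for the members with no call in the GFP IP against input. By accession, 9 tested member probes could each be matched to 1 entry of the authors' deposited table. The log2 ratio of the GFP IP mean to the input mean in the authors' deposited table was 1.31 for Ezh2, 1.15 for Ezh1, 2.69 for Eed, 1.45 for Rbbp7 and 1.65 for Phf1. Of the matched probes called higher, the Mtf2 probe A_51_P264995 was at 1.72 and the Aebp2 probes at 2.48 and 2.62. The Rbbp4 probe A_52_P382731, called lower, was at -1.04. Eed lay above all of these and Phf1 near the Mtf2 probe, so the ratios to input did not show the division by calls. The ratios of the GFP IP to the PABP1 IP in the authors' deposited table were 0.66 for Ezh2, 0.81 for Ezh1, -0.19 for Eed, -0.44 for Rbbp7 and -0.12 for Phf1, against 3.62 for the Mtf2 probe A_51_P264995 and 2.67 and 2.63 for the Aebp2 probes. Those means were scaled by the authors to the array median and carry no test here.

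**Figure D4:**
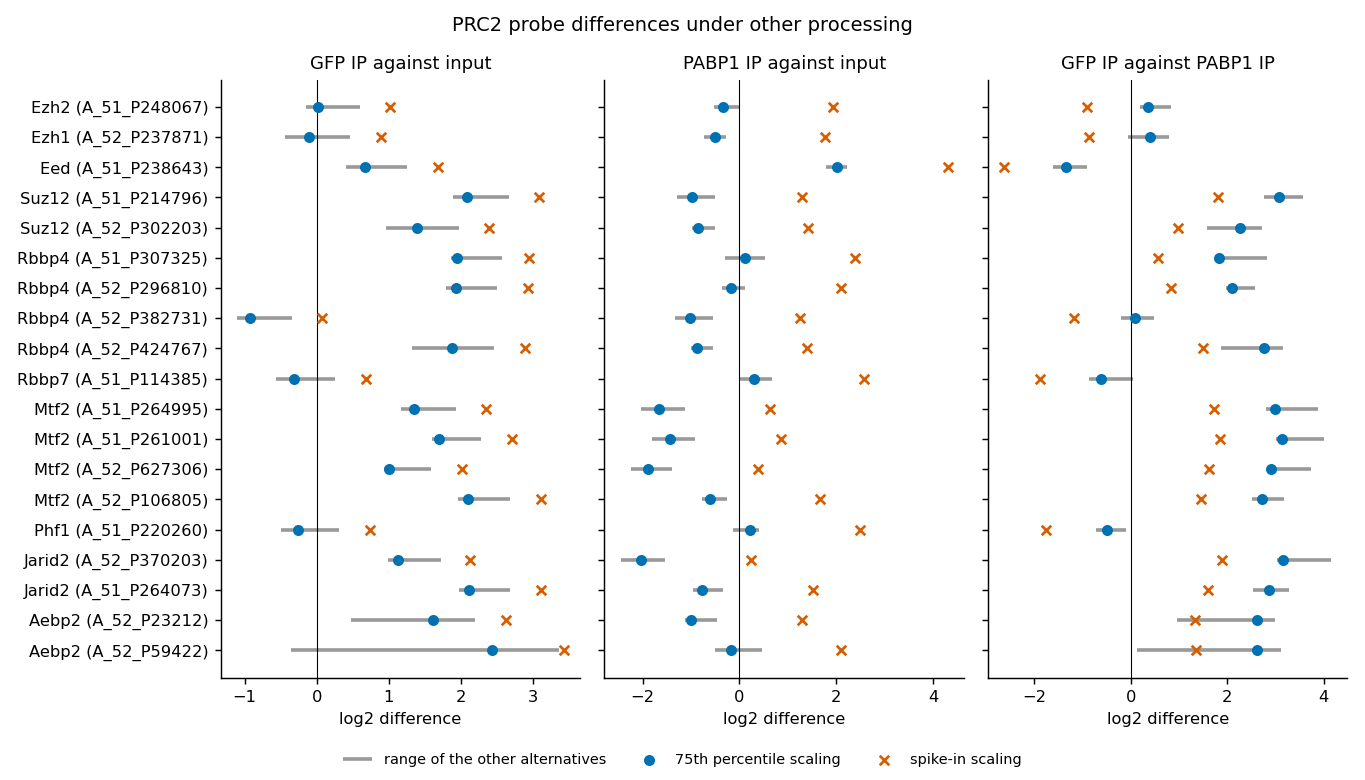
Points show the log2 difference of each member probe with the 75th percentile, crosses the value with spike-in scaling, and bars the range over the other alternatives tried, on a horizontal axis of log2 difference. In the PABP1 IP against input the crosses stand right of 0 in all 19 rows, and in the GFP IP against the PABP1 IP the crosses of Suz12, Mtf2, Jarid2 and Aebp2 stay right of 0.

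Other genes of the Polycomb system were read from lists by the brightest tested probe of each gene, a scale on which 18.0% of 14926 genes were higher and 36.0% lower in the GFP IP than in input. Of 6 measured genes of further PRC2 subunits and demethylases of the same histone mark, 2 were higher and 0 lower in the GFP IP than in input, Epop (0.74 ± 0.17, adjusted p = 0.0165), a subunit of the form that holds MTF2, and the MTF2 homolog Phf19 (0.59 ± 0.16, adjusted p = 0.0286). In the PABP1 IP against input 1 was higher and 3 were lower, where 30.0% of genes were higher and 23.6% lower. Epop was higher (1.41 ± 0.17, adjusted p = 0.00202), while the demethylase genes Kdm6a (-2.20 ± 0.25, adjusted p = 0.00175) and Kdm6b (-1.48 ± 0.17, adjusted p = 0.00196) and the corepressor gene Lcor (-1.94 ± 0.33, adjusted p = 0.00576) were lower. Between the IPs 4 were higher in the GFP IP and 1 was lower, where 22.0% of genes were higher and 41.0% lower. Lcor (2.67 ± 0.33, adjusted p = 0.00161), Kdm6a (2.64 ± 0.25, adjusted p = 0.000787) and Kdm6b (1.45 ± 0.17, adjusted p = 0.00148) were higher and Epop was lower (-0.67 ± 0.17, adjusted p = 0.0185). Spike-in scaling, which adds the same amount to every probe, turns the 3 PABP1 IP values below input positive and leaves the sign of the others named here. Scalings that depend on intensity were not run for these list genes.

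Of 26 measured genes of Polycomb repressive complex 1 and its deubiquitinase counterpart, 10 were higher, 6 lower and 10 not past in the GFP IP against input. Over all genes 18.0% were higher and 36.0% lower, and the medians were 0.34 for the list and -0.51 for all genes. In the PABP1 IP against input 7 were higher and 4 lower, where 30.0% of all genes were higher and 23.6% lower (medians 0.20 and 0.13). Between the IPs 10 were higher and 4 lower, where 22.0% were higher and 41.0% lower (medians 0.34 and -0.59). Rnf2, the ubiquitin ligase of that complex, was at 2.99 ± 0.17 in the GFP IP against input (adjusted p = 0.00142, another probe 0.84), and Rybp at 2.82 ± 0.17 (adjusted p = 0.00142, another probe 1.59). Between the IPs Rnf2 was at 2.65 ± 0.17 (adjusted p = 0.000536) and Rybp at 2.60 ± 0.17 (adjusted p = 0.000536). Another Rnf2 probe gave -0.34 (adjusted p = 0.147), and another Rybp probe gave a lower call of -1.02 (adjusted p = 0.0184). Pcgf1 had the largest absolute difference between the IPs on this list and was lower in the GFP IP (-2.75 ± 0.20, adjusted p = 0.000548).

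The genes whose pattern over the 6 arrays lay closest were found by the root mean square difference between log2 values, each gene centred on its own mean, among 12521 other genes. For Suz12 these were Hells (0.105), Afap1 (0.119), Ly75 (0.129), Ckap2 (0.135) and Nucks1 (0.138). For Jarid2 they were Taf7 (0.0933), Pcdh19 (0.115), Ammecr1l (0.119), Trp53bp1 (0.136) and Ccar2 (0.140). For Ezh2 they were Atg13 (0.0693), Qrsl1 (0.0765), Sbno2 (0.0767), Rbm12 (0.0798) and Uts2r (0.0870).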

How the data were processed

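The 20 probes and the gene lists were chosen with earlier results of these data known. Scanner files of 6 one-colour Agilent 4x44K mouse arrays were used. Per the file headers, the authors' spot intensity was extracted with Feature Extraction 9.1.3.1, which subtracted background and detrended the signal within each array. The deposited signal table holds group means that were scaled to the median of each array, per the file headers, and its quality score column was not used. Spots of a probe were averaged, processed intensity was divided by its array's 75th percentile over probes and log2 was taken. A probe was kept if some group had it well above background on each of its arrays. All 6 arrays were fitted with limma 3.58.1 in R 4.3.3 (3 groups, 3 residual degrees of freedom), with Benjamini-Hochberg adjustment over 21049 probes and a threshold of 0.05. Values after ± are limma's standard errors with 2 arrays per group, a number that limits the precision. Every member probe is named. From each list up to 4 genes past the threshold with the largest difference were eligible to be named. The procedure was tested on simulated data. Alternatives covered background, scaling, filters, slide, replicate block and leaving out each array. An untagged IP was not analysed here.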

Additional observations from a re-analysis of the deposited data

How the results depend on the processing

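With 2 arrays per group and 3 residual degrees of freedom, the array number limits the precision, and where an array was left out the lone one was assumed to vary like the other groups. Of the single-probe values under the alternatives, 896 were counted as unchanged, 47 lost their call, 26 gained one, 18 turned and 55 moved. Unchanged values kept direction and side of the threshold or, for deposited means with no test, lay within the standard error. Of the 55 that moved, 21 are deposited means with no test and 34 had no call. Under spike-in scaling the PABP1 IP against input turned to 0.85, 0.38, 0.62 and 1.66 for Mtf2, 1.41 and 1.29 for Suz12, 0.24 and 1.51 for Jarid2, 2.11, 1.40 and 1.25 for Rbbp4, 2.09 and 1.28 for Aebp2, 1.94 for Ezh2 and 1.77 for Ezh1. The Rbbp4 probe A_52_P382731 turned to 0.078 in the GFP IP against input and to -1.18 between the IPs, and with normexp background the Aebp2 probe A_52_P59422 turned to -0.36 against input. The cause was not tested. With 1 probe a gene, which tests fewer member probes, 5, 5 and 6 members were called in the GFP IP against input, the PABP1 IP against input and between the IPs. In the PABP1 IP against input 6 were called after median centring and 6 with no filter. Over all probes spike-in scaling gave 7091 calls in the GFP IP against input and 18022 in the PABP1 IP against input, and no filter gave 21623 in the former. Leaving out each array gave 12 to 15, 5 to 12 and 14 to 15 member calls in the 3 comparisons, and 5656 to 11324, 7477 to 11282 and 10789 to 12341 over all probes. Differences of replicate 1 minus replicate 2 correlated at 0.154 for input and PABP1 IP, -0.0196 for input and GFP IP and -0.624 for the IPs. IP arrays of the same replicate number lay on different slides, so these values cannot show whether the labels pair the samples. With the replicate block 13, 9 and 14 members and 9373, 10121 and 11843 probes were called. The crossed pairing of the IPs, chosen after seeing the data and the same as their shared slides, gave 15 member calls and 15869 over all probes between the IPs.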

Other observations

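RBBP4 and RBBP7 also belong to the NuRD, SIN3 and CAF-1 complexes, and 18 of 18 listed genes of those were measured. In the GFP IP against input 6 were higher and 8 lower, where 18.0% of all genes were higher and 36.0% lower, with a median log2 difference of -0.59 beside -0.51 for all genes. Hdac2 (3.25 ± 0.57, limma adjusted p = 0.00742) and Sap30, a SIN3 subunit (3.24 ± 0.31, adjusted p = 0.00195), were higher. So was Mbd2, which binds methylated DNA (1.71 ± 0.16, adjusted p = 0.00195). Chd4 was lower (-1.96 ± 0.43, adjusted p = 0.0154), while its other probes gave 0.24 and -1.18. In the PABP1 IP against input 7 were higher and 5 lower, where 30.0% of all genes were higher and 23.6% lower (medians 0.19 and 0.13). Between the IPs 5 were higher and 6 lower, where 22.0% were higher and 41.0% lower (medians 0.09 and -0.59). The NuRD remodeller gene Chd4 was lower in the PABP1 IP than in input (-3.63 ± 0.43, adjusted p = 0.00202), while its other probes gave -0.56 and -3.24.

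Of 12 Trithorax (COMPASS) genes, which encode a methylation machinery of active chromatin, 12 were measured. Of these 3 were higher and 3 lower in the GFP IP against input (18.0% and 36.0% of all genes, medians -0.08 and -0.51). In the PABP1 IP against input 1 was higher and 8 were lower (30.0% and 23.6%, medians -1.16 and 0.13). Between the IPs 8 were higher and 1 was lower (22.0% and 41.0%, medians 1.25 and -0.59). The methyltransferase gene Kmt2a was lower in the PABP1 IP than in input (-2.95 ± 0.16, adjusted p = 0.000836) and higher in the GFP IP than in the PABP1 IP (2.58 ± 0.16, adjusted p = 0.000536). Spike-in scaling adds 1.01, 2.28 and -1.27 to every log2 difference of the GFP IP against input, the PABP1 IP against input and between the IPs. That leaves the sign of the values named for Hdac2, Sap30, Mbd2 and Kmt2a. Of the Chd4 values named, it turns only the -0.56 in the PABP1 IP against input.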
